A study of Rattus norvegicus with 8 samples.

Results

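The 69 genes described here encode the proteins that hold epithelial cells to their neighbours and the keratin filaments that are anchored at those contacts. Membership went by the gene symbol: symbols that begin with Cldn, Krt, Cdh, Tjp, Dsg, Dsc, Pkp, Ctnn, Gja or Gjb, together with Ocln, Jup, Dsp, F11r and Epcam. The 69 genes lay on 96 of the 20500 features of a rat array, and they are 69 of the 17402 features that remained after features of one symbol were averaged, 9652 of them named genes. They comprise 15 cadherins and 2 cadherin-related genes, 4 catenins and 3 catenin-related genes, 14 tight junction genes, 6 desmosome genes, 8 connexins of gap junctions, 11 keratins and Epcam. The prefixes also took in Cldnd1, Krtcap3, Krtdap, Dscam and Dscaml1, which share part of a name with these families but are no claudins, keratins or desmosomal cadherins. Other well-known genes of these structures, among them Ctnnb1, Cldn2, Cldn4, Dsp, Dsg2, Gja1, Krt8 and Krt18, were not analysed here.

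The question was how rat intestinal epithelial cells, with and without an activated Ras, respond within 1 hr to TGF-beta-1 (transforming growth factor beta 1), whose receptors activate Smad transcription factors. RIE-Ras cells are RIE cells stably transfected with the plasmid pSV2-H-Ras(12V), which carries the human sequence of a constitutively active H-Ras; whether they are 1 clone is not stated in the sources used here. RIE cells are the parental line of rat intestinal epithelial cells, without that plasmid. Each line had 4 two-channel arrays, and on each array RNA of cells kept for 1 hr with TGF-beta-1 at 2 ng/ml was set against RNA of control cells of the same line. Each value is therefore a log2 ratio of treated over control, and it says nothing of how abundant a transcript was or of how the lines differ before treatment. The epithelial identity of the cells could not be checked for the same reason, since a ratio does not show whether a marker is present.

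Neighbouring epithelial cells are joined by several structures. In adherens junctions, cadherins bind across the gap between cells and catenins tie them to actin; in tight junctions, claudins and occludin seal the gap and the Tjp proteins form the scaffold beneath; in desmosomes, desmocollins and desmogleins connect through plakoglobin and plakophilins to keratin filaments. Connexins form channels between cells, and Epcam is a surface adhesion protein of epithelia. Loss of E-cadherin, claudins and keratins is a known late feature of epithelial cells that become mesenchymal under prolonged TGF-beta, a change in which Ras and TGF-beta can act together.

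From each log2 ratio the median of its array was taken off, which had been between 0.20 and 0.45. RIE-Ras replicate 1 stood apart: over all features its correlation with the other RIE-Ras arrays was -0.05, -0.03 and 0.145. Other arrays of a line also agreed little. RIE-Ras replicate 4 had r = 0.109 and 0.124 with replicates 2 and 3. RIE replicate 1 had r = 0.268, 0.122 and 0.079 with RIE replicates 2, 3 and 4. RIE-Ras replicate 2 was closer to RIE replicate 4 (r = 0.401) than to RIE-Ras replicate 3 (r = 0.348). RIE replicates 3 and 4 were the most alike pair, with r = 0.692. The treatment itself registered on every array: Smad7, which feeds back on the TGF-beta receptors, had ratios of 1.75, 1.24, 1.25 and 1.32 on the RIE-Ras arrays, against 2.59, 1.61, 1.45 and 1.55 on the RIE arrays. Smad7 rose in both lines (limma, adjusted p = 0.0386 in RIE-Ras and 0.0345 in RIE). No label says that the 4 arrays of a line stand for separate cultures, and the p-values then describe only the scatter among these samples, which could be technical.

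**Figure D1:**
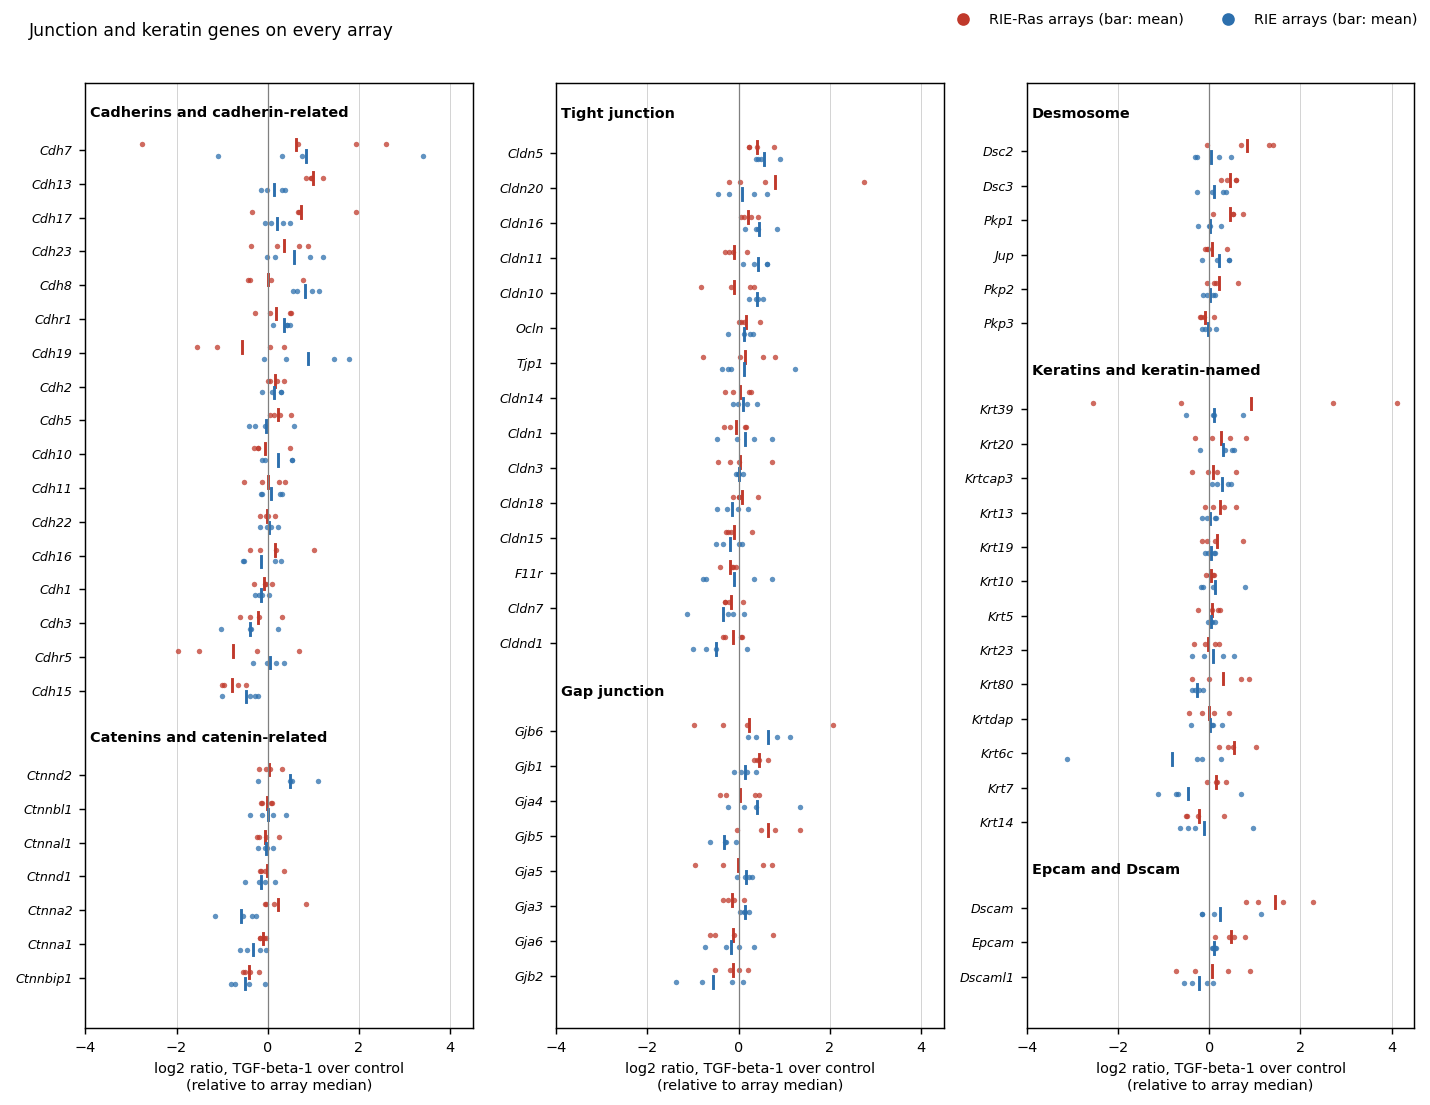
Log2 ratio of TGF-beta-1 over control, relative to the array median (horizontal axis), of the 69 genes grouped by family (vertical axis). Each gene has its 4 RIE-Ras arrays (red, upper) and its 4 RIE arrays (blue, lower), and upright bars mark the means. Most bars lie within 0.5 of 0, and Cdh13 is high on all 4 RIE-Ras arrays.

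After 1 hr of TGF-beta-1 the junction and keratin genes as a group stayed near the array median in both lines, as most features did. The mean ratio lay within 0.5 of 0, on the log2 scale, for 57 of the 69 genes in RIE-Ras cells and for 59 in RIE cells. Of all 17402 features, 15025 in RIE-Ras cells and 15414 in RIE cells lay within that range. The mean exceeded 1 in size for 1 gene, Dscam in RIE-Ras cells, beside 380 of all features in RIE-Ras cells and 276 in RIE cells. The median over the 69 genes was 0.06 in RIE-Ras cells and 0.05 in RIE cells, against 0.01 and -0.01 over all 17402 features. Mean ratios above 0 were found for 41 genes in RIE-Ras cells (59.4%, against 50.8% of all features) and for 44 in RIE cells (63.8%, against 49.2%). The typical size of a mean, whatever its sign, was a median of 0.16 in each line, against 0.19 in each line over all features.

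Few of these genes passed the test, which was limma's moderated test with Benjamini-Hochberg adjustment over all 17402 features at 0.05. In RIE-Ras cells 1 of the 69, Cdh13, rose, beside 0.419% of all features called there. In RIE cells 0 of the 69 passed, beside 0.0747% of all features. At an unadjusted p under 0.05 the counts were 12 in RIE-Ras cells (10 higher and 2 lower) and 13 in RIE cells (7 higher and 6 lower). As shares of the 69 these are 17.4% and 18.8%, close to the 19.3% and 17.5% of all features at that level. The test of the average of both lines, which uses all 8 arrays, called 4 genes, 2 higher and 2 lower, beside 3.49% of all features. At an unadjusted p under 0.05 this average of centred arrays held 16 genes (12 higher and 4 lower), which is 23.2%, against 24.5% of all features. Without centring, which leaves in the shift of all features (0.29 in RIE-Ras cells and 0.35 in RIE cells), the average called 38 of the 69 genes after adjustment, 37 higher and 1 lower. That is 55.1% of them, beside 50.1% of all features.

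The signs on single arrays were counted as well. One sign on all 4 RIE-Ras arrays was found for 15 of the 69 genes (21.7%, against 28.4% of all features), and one sign on all 4 RIE arrays for 16 (23.2%, against 29.1%). On all 8 arrays 6 of the 69 genes had one sign, a share near the 7.76% of all features. Cldn5, Cldn16 and Epcam were above 0, and Cdh15, Ctnna1 and Ctnnbip1 below it. Across the 69 genes the Pearson correlation between the mean ratios of the lines was 0.16, against 0.26 over all features, as a description over genes that share the same 8 arrays.

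**Figure D2:**
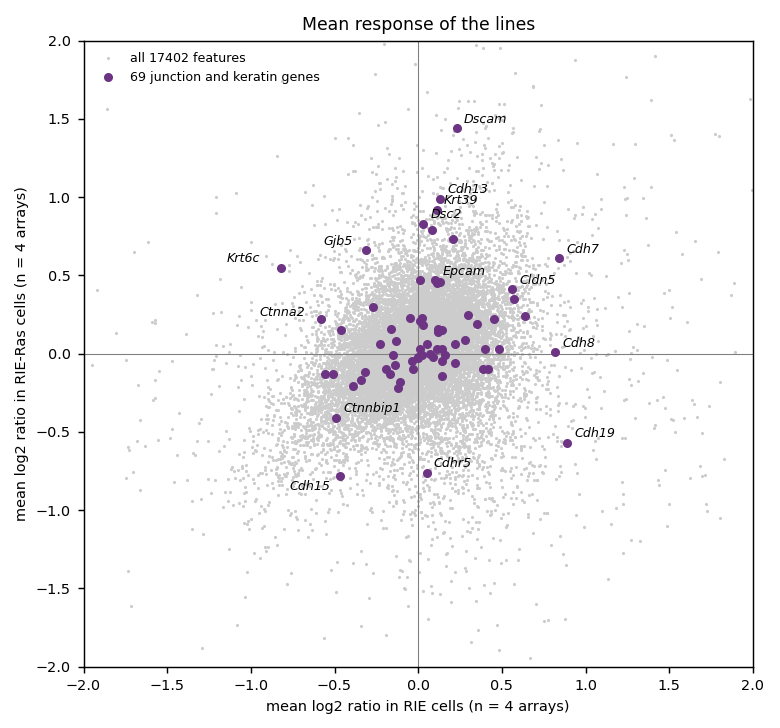
Mean log2 ratio, relative to the array median, in RIE-Ras cells (vertical axis) and in RIE cells (horizontal axis), n = 4 arrays each, for the 69 junction and keratin genes (purple) over all 17402 features (grey). The axes run to 2 in each direction and leave 26 grey features outside; Dscam and Cdh13 lie high for RIE-Ras with means near 0 for RIE.

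The 4 genes called in the average of the lines were the cadherins Cdh13 and Cdh15, the claudin Cldn5 and the catenin-binding protein Ctnnbip1. Promoter sequences from RefSeq (assembly GRCr8) were at hand for 50 of the 69 genes, Cdh13 and Cdh1 not among them. The 250 bases before the start of Cldn5 (chr11:95718599-95718848, minus strand), Cdh15 (chr19:67814407-67814656, plus strand) and Ctnnbip1 (chr5:165244848-165245097, plus strand) are shown because these genes passed in the average of the lines. Those of Cldn16 (chr11:87814397-87814646, minus strand) and Epcam (chr6:12649679-12649928, minus strand), each with one sign on all 8 arrays, and Cldn7 (chr10:55188420-55188669, plus strand), with the most E-boxes among the 50, are set beside them. Capitals mark CAGAC or its reverse complement GTCTG, the core that Smad proteins bind, and CACCTG or its reverse complement CAGGTG, the E-box that Snail and Zeb repressors bind in epithelial promoters. Both strands were searched, and no window printed here held both motifs.
Cldn5: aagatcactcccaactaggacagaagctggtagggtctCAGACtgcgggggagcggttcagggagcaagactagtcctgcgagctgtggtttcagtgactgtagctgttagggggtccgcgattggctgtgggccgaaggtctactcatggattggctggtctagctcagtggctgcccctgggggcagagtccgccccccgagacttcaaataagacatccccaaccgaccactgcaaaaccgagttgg
Cdh15: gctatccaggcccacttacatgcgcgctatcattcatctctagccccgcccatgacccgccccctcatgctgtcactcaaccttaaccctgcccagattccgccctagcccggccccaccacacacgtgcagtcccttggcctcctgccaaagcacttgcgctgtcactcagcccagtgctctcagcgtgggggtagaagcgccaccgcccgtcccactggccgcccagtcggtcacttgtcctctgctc
Ctnnbip1: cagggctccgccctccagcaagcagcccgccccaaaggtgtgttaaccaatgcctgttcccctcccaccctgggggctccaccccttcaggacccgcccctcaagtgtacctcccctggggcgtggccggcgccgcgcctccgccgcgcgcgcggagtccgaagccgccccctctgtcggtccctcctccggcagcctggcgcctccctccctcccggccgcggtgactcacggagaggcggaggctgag
Cldn16: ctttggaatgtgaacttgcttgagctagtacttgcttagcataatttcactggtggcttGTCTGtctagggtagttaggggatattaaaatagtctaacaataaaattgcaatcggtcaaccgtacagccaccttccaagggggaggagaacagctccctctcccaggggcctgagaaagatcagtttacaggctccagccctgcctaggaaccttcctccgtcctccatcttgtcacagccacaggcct
Epcam: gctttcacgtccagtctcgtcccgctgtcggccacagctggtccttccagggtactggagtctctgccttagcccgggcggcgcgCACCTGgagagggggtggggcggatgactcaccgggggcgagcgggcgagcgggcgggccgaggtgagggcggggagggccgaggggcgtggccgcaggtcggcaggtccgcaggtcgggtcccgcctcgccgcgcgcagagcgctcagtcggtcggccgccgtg
Cldn7: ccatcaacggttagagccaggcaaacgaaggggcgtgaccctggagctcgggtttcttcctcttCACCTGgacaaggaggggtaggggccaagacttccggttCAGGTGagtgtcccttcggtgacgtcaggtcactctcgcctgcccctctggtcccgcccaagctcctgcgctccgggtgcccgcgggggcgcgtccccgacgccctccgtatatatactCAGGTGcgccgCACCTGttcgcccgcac
The Cldn5 and Cldn16 windows each held 1 Smad core, 212 and 191 bases before the start, and no E-box of these letters. The windows of Cdh15 and Ctnnbip1 held neither motif. Cldn7 had 4 E-boxes, 186, 147, 28 and 17 bases before the start, and Epcam had 1, at 165 bases. Among the 50 windows, 18 (36%) held the Smad core, against 42.9% of 33469 promoters of the same length, and 15 (30%) held the E-box, against 15.9%. A match is a description of the letters only.

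Cdh13, which encodes T-cadherin, a cadherin held in the membrane by a lipid anchor in place of a cytoplasmic tail, was the one gene to rise in RIE-Ras cells. Its ratios were 1.21, 0.84, 0.95 and 0.95 on the RIE-Ras arrays, against 0.38, -0.01, -0.14 and 0.31 on the RIE arrays. All RIE-Ras arrays were high and lay above all RIE arrays, which straddled 0. The mean was 0.99 ± 0.16 in RIE-Ras cells and 0.13 ± 0.25 in RIE cells (SD, n = 4 each), a 1.98-fold change in RIE-Ras cells (limma adjusted p = 0.0386), and 0.56 in the average of the lines (adjusted p = 0.0218). In RIE cells the adjusted p was 0.596. In these bulk samples a change in the share of cells of a kind and a change in RNA per cell cannot be told apart. The call in RIE-Ras cells held in 6 of 17 alternatives. It was lost without each RIE-Ras array in turn (adjusted p = 0.0859 without replicate 1, 0.102 without 2, 0.0998 without 3 and 0.054 without 4). It was also lost without RIE replicate 2 (0.0926), 3 (0.0963) or 4 (0.0561), under quantile normalization (0.0693), with each line fitted alone (0.126), with a replicate block (0.154), and without RIE-Ras replicate 1 and RIE replicate 3 together (0.184).

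Cdh15, M-cadherin of muscle, fell in the average of the lines by 0.62 on the log2 scale (limma adjusted p = 0.0286). Its ratios were -0.66, -0.95, -1.01 and -0.48 on the RIE-Ras arrays, against -0.21, -0.29, -0.38 and -1.01 on the RIE arrays. They were below 0 on all 8 arrays, and the lines overlapped. The gene lay on 3 features, and the fall rested on 1 of them. That feature averaged -2.43 in RIE-Ras cells and -1.16 in RIE cells, and tested on its own it fell by 1.80 over both lines (adjusted p = 0.0253). The other features averaged -0.13 (adjusted p = 0.325) and 0.06 (adjusted p = 0.67) over both lines.

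The classical cadherins of epithelia showed little. Cdh1, E-cadherin, the main cadherin of intestinal epithelium, had ratios of -0.30, -0.06, 0.10 and -0.03 on the RIE-Ras arrays, against -0.20, -0.27, -0.12 and 0.02 on the RIE arrays. They lay close to 0 on all arrays with the lines overlapping, and the average was -0.11 (95% interval from -0.27 to 0.06; adjusted p = 0.411). Cdh2, N-cadherin, the cadherin that mesenchymal cells use, read 0.00, 0.04, 0.36 and 0.20 in RIE-Ras cells and -0.13, 0.10, 0.30 and 0.30 in RIE cells, again small and overlapping, with an adjusted p of 0.301 in the average. Cdh3, P-cadherin, had ratios of -0.38, -0.60, -0.19 and 0.31 on the RIE-Ras arrays, against 0.23, -1.03, -0.37 and -0.40 on the RIE arrays. RIE replicate 2 was the lowest array, and the lines overlapped. Of the 4 features of Cdh3, 1 read -3.371 on RIE replicate 2, and the others read -0.177, -0.104 and -0.449 there. Another of the 4 features fell when tested on its own, by 0.63 over both lines (limma adjusted p = 0.0186), and that feature was below 0 on all 8 arrays. The gene as a whole did not pass (-0.30, adjusted p = 0.244).

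Among the other cadherins the arrays disagreed more. Cdh17, LI-cadherin of liver and intestine, read -0.35, 0.67, 1.94 and 0.68 in RIE-Ras cells and 0.07, -0.05, 0.34 and 0.48 in RIE cells, with RIE-Ras replicate 1 below 0 and replicate 3 far above the rest (adjusted p = 0.227 in RIE-Ras cells). Cdh8, a cadherin of neurons, had ratios of -0.43, 0.08, 0.77 and -0.39 on the RIE-Ras arrays, against 0.65, 0.55, 0.97 and 1.12 on the RIE arrays. It was high on all RIE arrays and mixed on the RIE-Ras arrays, of which 1 lay within the RIE range; its mean in RIE cells was 0.82 (adjusted p = 0.133). Cdh19, a cadherin known from glial cells, read 0.04, 0.36, -1.12 and -1.56 in RIE-Ras cells and 1.79, 1.45, 0.40 and -0.09 in RIE cells, and its arrays spread over more than 1 log2 unit within each line. Of the remaining 9 genes of the family, none passed in any comparison. The means of Cdh5, Cdh10, Cdh11, Cdh16, Cdh22 and Cdhr1 lay within 0.5 of 0 in both lines. Cdh23, a cadherin of hair-cell tip links, averaged 0.35 in RIE-Ras cells and 0.57 in RIE cells. Cdh7 averaged 0.61 in RIE-Ras cells and 0.84 in RIE cells, with 1 array far below 0 in each line, and Cdhr5, a protocadherin of the intestinal brush border, averaged -0.76 in RIE-Ras cells and 0.05 in RIE cells. In all, 9 of 17 cadherins and cadherin-related genes were above 0 in RIE-Ras cells (median 0.01) and 12 of 17 in RIE cells (median 0.13).

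The catenins lay mostly below the array median. Of 7 catenins and catenin-related genes, 5 were below 0 in RIE-Ras cells (median -0.03) and 6 in RIE cells (median -0.15). Over all features 50.8% were above 0 in RIE-Ras cells and 49.2% in RIE cells. These signs are relative to the array median, and without centring Ctnnd1, for one, averaged 0.24 over the lines. Ctnnbip1, which encodes ICAT, an inhibitor that keeps beta-catenin from TCF factors, fell in the average of the lines by 0.45 (limma adjusted p = 0.047). Its ratios were -0.54, -0.51, -0.38 and -0.20 on the RIE-Ras arrays, against -0.05, -0.41, -0.71 and -0.80 on the RIE arrays. All 8 were below 0, and RIE replicate 1 was the one nearest to 0. Without centring, its average was -0.13 (adjusted p = 0.232), so it fell relative to the other features of its arrays.

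Ctnna1, alpha-catenin, which links the cadherin complex to actin, had ratios of -0.04, -0.18, -0.08 and -0.16 on the RIE-Ras arrays, against -0.04, -0.17, -0.45 and -0.62 on the RIE arrays. All were below 0 and the lines overlapped, with a mean of -0.12 in RIE-Ras cells and -0.32 in RIE cells (adjusted p = 0.148 in the average). Of its 2 features, 1 was below 0 on all 8 arrays, averaging -0.31 in RIE-Ras cells and -0.67 in RIE cells, and the other averaged 0.08 and 0.02. Ctnna2, the alpha-catenin of neurons, read 0.83, -0.06, 0.14 and -0.03 in RIE-Ras cells and -0.55, -0.35, -0.26 and -1.15 in RIE cells. Every RIE array was below every RIE-Ras array, and RIE-Ras replicate 1 was the high one. Ctnnd1, p120-catenin, which stabilises cadherins at the membrane, had ratios of -0.07, -0.15, -0.16 and 0.35 on the RIE-Ras arrays, against 0.16, -0.05, -0.20 and -0.50 on the RIE arrays, small and of both signs. Ctnnd2, its neural relative, read 0.05, -0.04, 0.31 and -0.20 in RIE-Ras cells and -0.21, 0.49, 0.54 and 1.11 in RIE cells, with 3 of 4 RIE arrays above all RIE-Ras arrays and RIE replicate 1 at their low end. Neither passed in any comparison, nor did Ctnnal1 and Ctnnbl1, whose means lay between -0.05 and 0.00.

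Among 14 tight junction genes, 8 were above 0 in RIE-Ras cells (median 0.03) and 10 in RIE cells (median 0.11), and 1 was called. Cldn5, a claudin best known from endothelium, rose in the average of the lines by 0.48 (limma adjusted p = 0.0376). Its ratios were 0.40, 0.78, 0.23 and 0.22 on the RIE-Ras arrays, against 0.92, 0.39, 0.43 and 0.50 on the RIE arrays. All 8 were above 0, and the lines overlapped throughout. The mean was 0.41 ± 0.26 in RIE-Ras cells and 0.56 ± 0.25 in RIE cells (SD, n = 4 each), 1.33-fold and 1.48-fold, with adjusted p of 0.164 and 0.131 in the single lines. Of the 8 endothelial genes listed as markers, 7 were measured, Cldn5 and Cdh5 among them; the median over them ranged over the arrays from 0.04 to 0.27 in RIE-Ras cells and from 0.12 to 0.44 in RIE cells. Their part in the Cldn5 result was not tested. Cldn16, a claudin of the kidney, was likewise above 0 on all arrays, with 0.42, 0.12, 0.05 and 0.27 on the RIE-Ras arrays, against 0.15, 0.39, 0.42 and 0.84 on the RIE arrays; it averaged 0.33 (adjusted p = 0.0768).

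For the main tight junction proteins of the gut the mean ratios lay within 0.5 of 0 in both lines, while single arrays of some lay further off. Ocln, occludin, had ratios of 0.47, 0.12, 0.01 and 0.05 on the RIE-Ras arrays, against -0.23, 0.26, 0.31 and 0.13 on the RIE arrays. Only RIE replicate 1 was below 0. Cldn1 read -0.18, 0.16, -0.31 and 0.15 in RIE-Ras cells and -0.47, -0.04, 0.33 and 0.74 in RIE cells, Cldn3 read -0.44, 0.74, 0.00 and -0.19 in RIE-Ras cells and -0.06, 0.02, -0.02 and 0.09 in RIE cells, and both are sealing claudins of epithelia. Neither had one sign in either line. Cldn7, a claudin of the basolateral membrane of the gut, had ratios of 0.09, -0.29, -0.20 and -0.29 on the RIE-Ras arrays, against -1.14, -0.22, 0.12 and -0.13 on the RIE arrays, with 1 array above 0 in each line and RIE replicate 1 far below the rest. F11r, the junctional adhesion molecule JAM-A, read -0.15, -0.12, -0.05 and -0.40 in RIE-Ras cells and 0.73, 0.33, -0.72 and -0.78 in RIE cells; its RIE-Ras arrays were all slightly below 0, and its RIE arrays split into 2 high and 2 low ones. None of these 5 genes passed in any comparison, with adjusted p from 0.274 to 0.946 in the average of the lines.

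Tjp1, the scaffold protein ZO-1, had ratios of -0.79, 0.79, 0.54 and 0.03 on the RIE-Ras arrays, against -0.36, 1.23, -0.17 and -0.23 on the RIE arrays. The arrays disagreed, with RIE-Ras replicate 1 low and RIE replicate 2 high, and the features differed in how far they showed this. Of its 4 features, 1 ran from -2.67 on RIE-Ras replicate 1 to 4.43 on RIE replicate 2. Another read -0.915 and 0.563 on these arrays. The others read 0.132 and 0.284 on RIE-Ras replicate 1, against -0.128 and 0.044 on RIE replicate 2. Cldn11, a claudin of myelin and testis, read -0.12, 0.19, -0.29 and -0.20 in RIE-Ras cells and 0.10, 0.33, 0.63 and 0.63 in RIE cells. Its RIE arrays were all above 0 and 3 of them above every RIE-Ras array. Cldn20 had ratios of 0.04, 0.59, -0.21 and 2.76 on the RIE-Ras arrays, against -0.45, -0.20, 0.63 and 0.33 on the RIE arrays, where RIE-Ras replicate 4 alone stood high. The remaining members Cldn10, Cldn14, Cldn15 and Cldn18 had means between -0.19 and 0.39, and none passed. Cldnd1, which is not a claudin proper, averaged -0.13 in RIE-Ras cells and -0.51 in RIE cells.

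The desmosome genes had the highest median of the 6 families in RIE-Ras cells. Of 6, 5 were above 0 in each line, with a median of 0.33 in RIE-Ras cells and 0.02 in RIE cells, and none passed the adjusted test in either line (limma, 3 of 6 at an unadjusted p under 0.05 in RIE-Ras cells, 0 of 6 in RIE cells, where the shares of all features are 19.3% and 17.5%). By array the median over the 6 genes ran from 0.11 to 0.45 in RIE-Ras cells and from -0.17 to 0.19 in RIE cells. The desmocollins are the transmembrane cadherins of the desmosome. Dsc2, the most widely expressed form, had ratios of 0.70, 1.39, 1.30 and -0.05 on the RIE-Ras arrays, against -0.31, 0.48, 0.22 and -0.26 on the RIE arrays. RIE-Ras replicate 4 lay among the RIE arrays, and the other RIE-Ras arrays were above all of them. Of its 3 features, 1 averaged 2.05 in RIE-Ras cells and the others 0.30 and 0.15, so the mean of 0.83 (adjusted p = 0.128) came mostly from 1 feature. Dsc3, a form of stratified epithelia, which was named after its values were seen, read 0.59, 0.38, 0.26 and 0.58 in RIE-Ras cells and -0.28, 0.07, 0.37 and 0.29 in RIE cells, all above 0 in RIE-Ras cells.

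The plaque proteins of the desmosome split. Pkp1, plakophilin 1, had ratios of 0.73, 0.53, 0.08 and 0.52 on the RIE-Ras arrays, against -0.24, 0.02, 0.26 and -0.01 on the RIE arrays. Only RIE-Ras replicate 3 fell within the RIE range, and both features of the gene averaged above 0 in RIE-Ras cells, at 0.37 and 0.56 (adjusted p = 0.123 for the gene). Pkp2, the plakophilin of simple epithelia and heart, read -0.04, 0.11, 0.14 and 0.63 in RIE-Ras cells and 0.13, -0.14, 0.09 and -0.04 in RIE cells, and Pkp3 read 0.10, -0.18, -0.12 and -0.20 in RIE-Ras cells and -0.09, -0.01, -0.16 and 0.15 in RIE cells. Both lay near 0 with the lines overlapping. Jup, plakoglobin, which serves both desmosomes and adherens junctions, had ratios of -0.09, -0.02, -0.05 and 0.39 on the RIE-Ras arrays, against 0.43, -0.15, 0.16 and 0.43 on the RIE arrays. RIE-Ras replicate 4 stood apart from the other arrays of that line, and the lines overlapped.

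The 8 connexins were split in both lines, with 4 above 0 in RIE-Ras cells (median 0.01) and 5 in RIE cells (median 0.14). Gjb1, connexin 32 of liver and other glandular epithelia, had ratios of 0.65, 0.40, 0.44 and 0.35 on the RIE-Ras arrays, against -0.10, 0.05, 0.19 and 0.39 on the RIE arrays. All RIE-Ras arrays were above 0 and close together, and the highest RIE array reached into their range (RIE-Ras mean 0.46, adjusted p = 0.0895). Gjb5, a connexin of skin and placenta, read -0.03, 0.80, 1.35 and 0.49 in RIE-Ras cells and -0.30, -0.05, -0.27 and -0.62 in RIE cells. No RIE array was as high as any RIE-Ras array, although RIE-Ras replicate 1 lay just above the highest of them. Gjb2, connexin 26, had ratios of 0.20, 0.01, -0.52 and -0.19 on the RIE-Ras arrays, against 0.10, -0.15, -0.80 and -1.37 on the RIE arrays, with RIE replicates 3 and 4 low (RIE mean -0.56, adjusted p = 0.261). Gjb6, connexin 30, read -0.97, -0.34, 2.08 and 0.18 in RIE-Ras cells and 1.14, 0.85, 0.21 and 0.38 in RIE cells, and its RIE-Ras arrays spread far to both sides of 0. Gja3, a connexin of the lens, had ratios of -0.10, 0.11, -0.34 and -0.23 on the RIE-Ras arrays, against 0.04, 0.24, 0.13 and 0.15 on the RIE arrays, small in both lines. The means of Gja4, Gja5 and Gja6 lay between -0.17 and 0.40.

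Of 11 keratins, 9 were above 0 in RIE-Ras cells (median 0.18) and 7 in RIE cells (median 0.03), and 0 passed in either line, in their average or in their difference, also at an unadjusted p under 0.05 (limma). Krt19 and Krt20 are keratins of simple and intestinal epithelium. Krt19 had ratios of 0.75, 0.13, -0.15 and -0.04 on the RIE-Ras arrays, against -0.09, -0.02, 0.12 and 0.11 on the RIE arrays, and RIE-Ras replicate 1 was the high one. Krt20 read 0.81, 0.05, -0.31 and 0.46 in RIE-Ras cells and -0.20, 0.35, 0.49 and 0.54 in RIE cells, with 1 array of each line below 0. Krt7, of simple glandular epithelia, had ratios of -0.06, 0.36, 0.17 and 0.14 on the RIE-Ras arrays, against 0.69, -0.72, -0.68 and -1.13 on the RIE arrays. In RIE cells 3 arrays were low and replicate 1 was high, while the RIE-Ras arrays lay near 0.

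Krt6c, a keratin of stressed or stratified epithelium, had ratios of 0.52, 1.03, 0.42 and 0.22 on the RIE-Ras arrays, against -0.26, -3.12, -0.15 and 0.26 on the RIE arrays. All RIE-Ras arrays were above 0, and RIE replicate 2 lay far below every other array. Krt14, of basal cells in stratified epithelium, read -0.24, -0.50, -0.49 and 0.33 in RIE-Ras cells and 0.96, -0.47, -0.31 and -0.65 in RIE cells. In each line 1 array was above 0. Krt23 read -0.33, 0.13, 0.21 and -0.10 in RIE-Ras cells and -0.38, 0.30, -0.12 and 0.55 in RIE cells, near 0 in both lines. Krt39, a hair keratin, ran from -2.55 to 4.12 in RIE-Ras cells, with -2.55, 2.72, 4.12 and -0.62 on the RIE-Ras arrays, against 0.08, -0.52, 0.11 and 0.75 on the RIE arrays, the widest range of all 69 genes. The remaining keratins Krt5, Krt10, Krt13 and Krt80 had means between -0.27 and 0.30, and Krtcap3 and Krtdap between -0.02 and 0.28.

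Epcam had ratios of 0.78, 0.54, 0.13 and 0.44 on the RIE-Ras arrays, against 0.06, 0.09, 0.14 and 0.12 on the RIE arrays. All 8 were above 0, the RIE arrays close together and 3 of the RIE-Ras arrays above them all. The mean was 0.47 ± 0.27 in RIE-Ras cells and 0.10 ± 0.04 in RIE cells (SD, n = 4 each), and the adjusted p was 0.0925 in RIE-Ras cells and 0.0827 in the average. Dscam, a neuronal adhesion molecule of the immunoglobulin family that only shares its first letters with the desmocollins, had the largest mean of the 69 genes. Its ratios were 1.61, 0.81, 1.06 and 2.28 on the RIE-Ras arrays, against 1.14, -0.15, 0.11 and -0.16 on the RIE arrays. All RIE-Ras arrays were high, but RIE replicate 1 lay within their range (RIE-Ras mean 1.44, adjusted p = 0.0595; average 0.84, adjusted p = 0.0539). Its relative Dscaml1 averaged 0.06 in RIE-Ras cells and -0.23 in RIE cells.

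**Figure D3:**
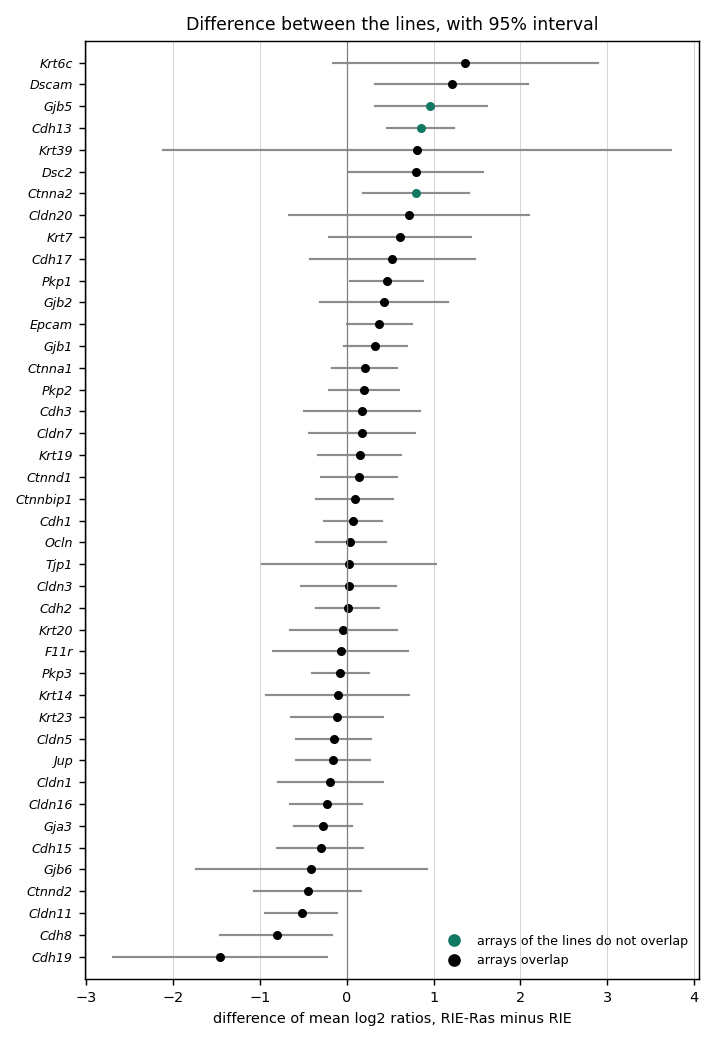
Difference of the mean log2 ratios, RIE-Ras minus RIE (horizontal axis), with its 95% interval from limma, for the 42 genes named by rule (vertical axis, largest difference on top). Green points mark Gjb5, Cdh13 and Ctnna2, whose RIE-Ras arrays all lie above their RIE arrays; most intervals cross 0.

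Whether the lines responded differently was tested on the difference between their mean ratios. Ras status and line are the same split here, so an effect of Ras cannot be told apart from other differences between the lines. None of the 69 genes passed (limma, 0 called, beside 0% of all features), and 9 genes had an unadjusted p under 0.05, 6 with a positive and 3 with a negative difference. This is 13.0% of the 69, against 10.7% of all features. The positive ones were Cdh13, Ctnna2, Dsc2, Pkp1, Gjb5 and Dscam, and the negative ones Cdh8, Cdh19 and Cldn11. The smallest adjusted p was that of Cdh13, with a difference of 0.85 (95% interval 0.46 to 1.24, adjusted p = 0.228). Gjb5 differed by 0.96 (95% interval 0.32 to 1.61, adjusted p = 0.326) and Ctnna2 by 0.80 (95% interval 0.19 to 1.41, adjusted p = 0.37). For Cdh1 the difference was 0.07 (95% interval -0.26 to 0.41) and for Cdh2 0.01 (95% interval -0.36 to 0.37).

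Arrays of the lines did not overlap for 3 of the 69 genes (4.35%), beside 7.50% of all features, and in all 3 the RIE-Ras arrays were the higher. They were Cdh13, Gjb5 and Ctnna2. Opposite signs in the lines on every array were found for 0 of the 69 genes, beside 1.77% of all features. Over the 69 genes the median difference was 0.02, against 0.04 over all features.

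Of the 69 genes, 18 lay on several features. The feature means of 1 gene had opposite signs for 10 of the 18 genes in RIE-Ras cells and for 16 of the 18 in RIE cells. Some of these means lay close to 0, such as -0.06 and 0.07 for Pkp1 in RIE cells. The share among other genes on several features was not counted, so these counts do not set the 18 genes apart. The 4 features of Cdh3 averaged from -0.57 to 0.02 in RIE-Ras cells and from -1.03 to 0.10 in RIE cells. Those of Pkp1 and Dsc3 lay closer together, from 0.37 to 0.56 and from 0.21 to 0.69 in RIE-Ras cells. When each feature was tested on its own, the average of the lines called 1 feature each of Cdh15, Cdh3 and Dsc3 among these 18 genes, beside 3.74% of all 20500 features.

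**Figure D4:**
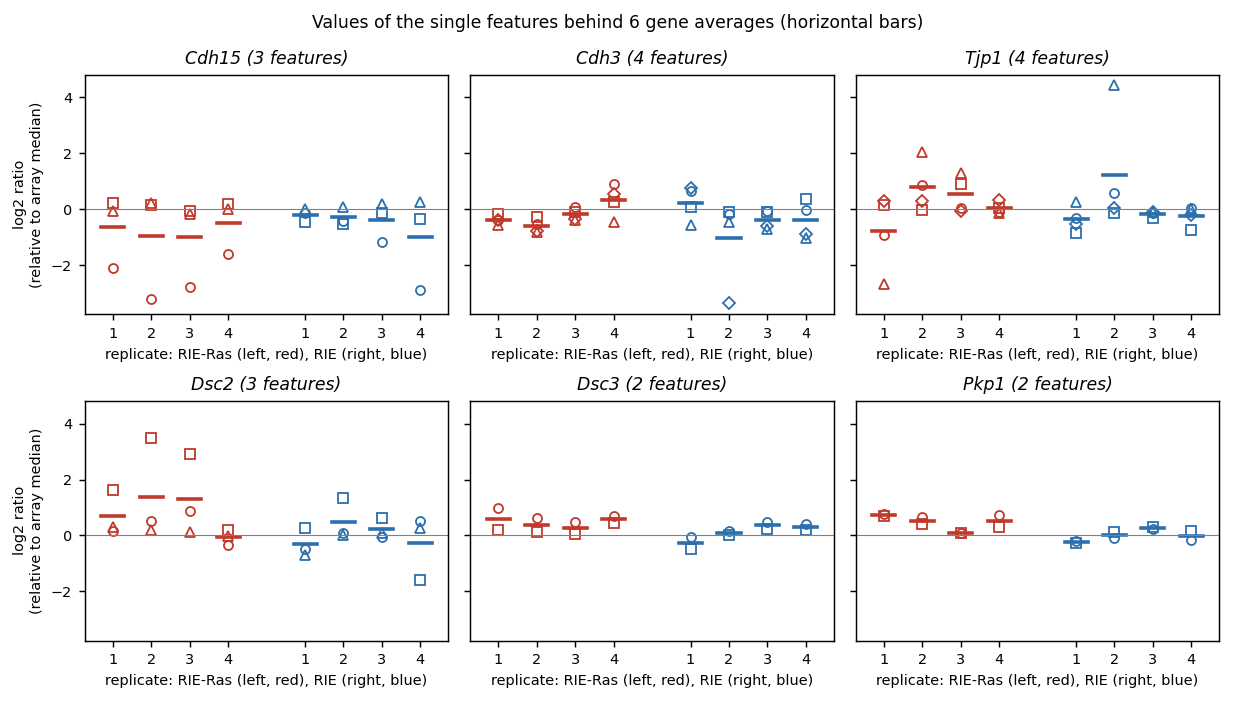
Log2 ratio relative to the array median (vertical axis) of the single features of 6 genes on each array (horizontal axis, replicates 1 to 4), RIE-Ras in red at the left and RIE in blue at the right. Each symbol shape is 1 feature and bars are the gene's average; 1 feature of Cdh15 lies far below the others on the RIE-Ras arrays, and 1 feature of Dsc2 far above them on RIE-Ras replicates 2 and 3.

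Several of the widest spreads belonged to features with a fold value that recurs on an array more often than its neighbouring hundredths. This held for 8 of the 69 genes, Cdh7, Cdh11, Cdh19, Cdhr5, Cldn20, Gjb6, Krt39 and Tjp1, in all 8 on RIE-Ras replicate 1 and on no other array. Such values were not particular to these genes: 8 of their 96 features held one, beside 1820 of all 20500. The SD over the 8 arrays was 0.92 to 2.07 for the 6 of them that lay on 1 feature, against a median of 0.33 for the 61 other genes. Some of the 61 were averages of several features. Of the 5 genes whose SD exceeded 1, 4 were among the 8 genes with a repeated value. Cdh19 and Cldn20 read 0.04 on RIE-Ras replicate 1, and their extreme values lay on other arrays. Cdh7, Cdh11, Cdhr5, Gjb6, Krt39 and Tjp1 had their lowest value on RIE-Ras replicate 1. The part of the repeated values in the spread was not tested.

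The calls in the average of the lines changed with the arrays used. Without RIE-Ras replicate 1, Cdh13 alone was called (0.52, limma adjusted p = 0.0453), and Cdh15 (adjusted p = 0.0524), Cldn5 (0.0691) and Ctnnbip1 (0.0846) were not. Without RIE-Ras replicate 4, Cdh13 and Cdh15 were called. Without RIE-Ras replicate 2 or 3, or without RIE replicate 2, 3 or 4, none of the 69 was. Without RIE replicate 1, 8 genes were called: Cldn16, Cldnd1, Dsc3 and Gjb1 beside the same 4. That is 11.6% of the 69, and 7.07% of all features were called in that fit. The direction of the 4 was the same in each of these fits.

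Partners of these genes, from lists of named proteins, gave few calls. For comparison, 19.3% of all features in RIE-Ras cells and 17.5% in RIE cells had an unadjusted p under 0.05 (limma). The average of the lines called 3.49% of all features, 201 higher and 407 lower. Of 22 measured partners of adherens junctions and nectins, Ctnnd2 among them, 0 passed in either line (limma, 6 and 5 at an unadjusted p under 0.05 in RIE-Ras and RIE cells), with medians of 0.01 in RIE-Ras cells and -0.07 in RIE cells. In the average of the lines Adam15, a membrane metalloprotease that can cleave E-cadherin, fell by 0.40 (adjusted p = 0.0376). Values of all partner lists are relative to the array median. Without centring, the median of all features in the average of the lines was 0.32, so Adam15 fell relative to the other features of its arrays. Of 18 scaffold and polarity proteins of the tight junction, 0 passed in either line (2 and 1 at an unadjusted p under 0.05), with medians of 0.02 and -0.04. Ybx3, a factor that binds ZO-1 at tight junctions, fell in the average by 0.58 (adjusted p = 0.0327), and it was below 0 on all 8 arrays. Of 3 measured other connexins and pannexins, 0 passed in either line. Panx1, of that list, was below 0 on all RIE-Ras arrays (mean -1.53) and above 0 on all RIE arrays (mean 0.43). Such opposite signs were found for 1.77% of all features. The difference of Panx1 between the lines did not pass (-1.96, limma adjusted p = 0.395).

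Among 21 plakins, hemidesmosome proteins and other intermediate filament proteins, 3 fell in the average of the lines. That test called 3.49% of all features, 201 higher and 407 lower. In the single lines 0 of the 21 passed. At an unadjusted p under 0.05 (limma) there were 7 in RIE-Ras cells (33.3%, against 19.3% of all features) and 5 in RIE cells (23.8%, against 17.5%). Those that fell in the average were Vim by 0.87 (adjusted p = 0.0454), Lmna by 1.03 (adjusted p = 0.0274) and Cd151 by 0.89 (adjusted p = 0.0338). Vim, vimentin, the filament of mesenchymal cells, had ratios of -0.67, -1.57, -0.74 and -2.38 on the RIE-Ras arrays, against -0.08, -0.68, -0.42 and -0.38 on the RIE arrays. All were below 0, RIE-Ras replicates 2 and 4 the lowest. Lmna encodes the nuclear lamins A and C, and Cd151 a tetraspanin of hemidesmosomes; both were below 0 on all 8 arrays. Whether the filament lists differed from each other was not tested.

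Of 17 measured regulators of the epithelial and mesenchymal state, 0 passed in either line, with medians of 0.03 in RIE-Ras cells and 0.04 in RIE cells. At an unadjusted p under 0.05 (limma) there were 4 in RIE-Ras cells (23.5%, against 19.3% of all features) and 6 in RIE cells (35.3%, against 17.5%). Hmga2, a chromatin protein linked to the mesenchymal program, rose in the average by 0.32 (adjusted p = 0.0494) and was above 0 on all 8 arrays. It was the 1 gene of this list called in that test, which called 3.49% of all features. Foxc2, of the same list, was below 0 on all RIE-Ras arrays (mean -0.31) and above 0 on all RIE arrays (mean 0.45). Its difference between the lines did not pass (-0.76, limma adjusted p = 0.246). Snai1, Snai2, Snai3, Zeb1, Twist1 and Twist2, well-known repressors of Cdh1, were not analysed here. Zeb2, of the same list, was measured and did not pass. It was above 0 on all 4 RIE-Ras arrays (mean 0.27, limma adjusted p = 0.251) and averaged 0.11 in RIE cells. In the average of the lines it was 0.19 (adjusted p = 0.196). Of 10 measured early targets of TGF-beta, 3 rose in RIE-Ras cells (Smad7, Gadd45b and Tgif1) and 2 in RIE cells (Smad7 and Gadd45b), and their median was 0.87 in RIE-Ras cells and 0.56 in RIE cells. The 12 measured markers of intestinal epithelium, 7 of which belong to the 69 genes, had a median of 0.08 in RIE-Ras cells and 0.03 in RIE cells. Other measured marker lists, of fibroblasts or smooth muscle (9 genes), leukocytes (9) and neural cells (7), had medians from -0.01 to 0.11 in RIE-Ras cells and from -0.01 to 0.11 in RIE cells. In the average of the lines 4 of the 9 fibroblast or smooth muscle markers were above 0 and 5 below it (median -0.02). Of the 9, 2 were called lower, beside 407 of all 17402 features. They were Vim and the collagen gene Col1a2, which was named after its values were seen. Col1a2 had ratios of -0.66, -1.22, -0.52 and -0.63 on the RIE-Ras arrays, against -1.64, -2.95, -0.89 and -1.34 on the RIE arrays, all below 0 and with the lines overlapping, and fell by 1.23 (adjusted p = 0.0258). Their part in the results for the junction genes was not tested.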

How the data were processed

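The response to TGF-beta-1 was measured on 8 two-channel arrays, 4 of RIE-Ras and 4 of RIE cells, grouped by their labels. The authors deposited 1 value per feature and array; per the labels it is the treated signal over the control signal, and from the values it is on a log2 scale, since 100% of the fold values were whole hundredths within 0.01 of that step. Direction is per the labels. The sources used here do not give dyes, background correction, normalization or any centring by the authors, and no intensities were used, so a dye effect of a feature cannot be told apart from treatment within a line.

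Features were named through the platform annotation, updated through a RefSeq gene table (12750 with 1 symbol, 5 with several, 7745 with none). Each array was centred on its median, features of 1 symbol were averaged, and all 8 arrays were fitted with limma 3.58.1 under R 4.3.3 (lmFit, eBayes, 1 mean per line, 6 residual and 2.71 prior degrees of freedom). Tests were two-sided, Benjamini-Hochberg adjusted over 17402 features at 0.05, and the fit was tested on simulated data.

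The members and lists were chosen with earlier results of these data known. Named by rule were members past the threshold, the highest and lowest of each family and comparison, the 5 smallest p per comparison, genes whose lines did not overlap, and a core set, 42 in all. Other genes were named after their values were seen. A fold value counted as repeated where at least 20 features held it and it was 1.5 times as frequent as the neighbouring hundredths. Alternatives were no centring, equal spread, quantile normalization, single features, each line alone, robust eBayes, a replicate block, no repeated fold values, and leaving out arrays. The number of arrays limits the precision.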

Additional observations from a re-analysis of the deposited data

Results flagged for a closer look

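In 3 of 84 sets of 4 arrays (3.57%), taken over the 42 genes named by rule and both lines, 1 array lay far from the other 3 by Dixon's test, which chance alone meets in about 1 of 20 sets. Jup was 0.39 on RIE-Ras replicate 4, above the other RIE-Ras arrays. Krt6c was -3.12 on RIE replicate 2, below the other RIE arrays. Tjp1 was 1.23 on RIE replicate 2, above the other RIE arrays, with 1 of its 4 features at 4.43 there.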

How the results depend on the processing

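Over all alternatives and single genes, 2723 values kept their side of the threshold, of which 153, called in neither fit, turned sign; 46 lost and 51 gained a call, and 4 turned sign with a call in 1 of the fits. Of these 4, 3 came without centring, in the average of the lines: Ctnnd1 0.24, Gja3 0.32 and Pkp3 0.25; the other was 1 single feature of Cdh15, at 0.06. No centring called 3657 features in RIE-Ras cells, 4061 in RIE cells, 1 in the difference and 8716 in the average, with 15, 23, 0 and 38 members and member medians of 0.34, 0.40 and 0.40 in the lines and their average; all features shifted alike by 0.32. Equal spread called 10, 87 and 1009 features in RIE-Ras cells, RIE cells and the average, and quantile normalization 0 (0 members in RIE-Ras cells), 95 and 983. Each line alone gave 0 features (0 members) in RIE-Ras cells and 1 in RIE cells; without repeated fold values RIE-Ras cells had 178 features and 2 members. Same-numbered arrays did not vary together (r = 0.065, -0.041, -0.024 and -0.054), nor did each array correlate best with its own number, and the replicate block called 0, 0 and 3 features and 0 members in all. Leaving out single arrays gave 0 to 137 features in RIE-Ras cells, 0 to 30 in RIE cells, 0 to 2 in the difference and 4 to 1230 in the average, with 0 to 2, 0, 0 and 0 to 8 members. Without RIE-Ras replicate 1 and RIE replicate 3 together, chosen after seeing the data, 9, 0 and 15 features and 0 members were called. The causes were not tested.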
